A study of Mus musculus with 15 samples.

Results

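The interferon regulatory factors are a family of transcription factors, and 7 of them were followed here in mouse tumours: Irf1, Irf2, Irf4, Irf5, Irf7, Irf8 and Irf9. They were found in the authors' normalised table by their Ensembl gene identifiers, and all 7 were present among its 17712 genes, of which 9 carry an Irf symbol. Each library came from a tumour of MC38, a colon adenocarcinoma line, grown under the skin of the flank of C57BL/6 mice. At a size of about 5 mm the tumours were injected with 100 µL and were collected 24 h later. A first group of 4 tumours received 50 µg of BO-112, a double-stranded RNA (polyinosinic-polycytidylic acid) carried by polyethylenimine. A second group of 4 received 100 µg of DMXAA, a small molecule that activates mouse STING, the adaptor of cytosolic DNA sensing. The last treated group of 4 received both agents at those doses (BO-112+DMXAA). The 3 vehicle tumours received PBS with 5% DMSO and 5% glucose. The same percentages of DMSO and glucose are recorded for the tumours of every treated group. The labels call the tumours biological replicates and give neither the age nor the sex of the mice, and no untreated tumour is among the libraries used here.

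All members of the family bind DNA through a shared N-terminal domain that reads GAAA repeats, the core of the interferon-stimulated response element. IRF9 is the DNA-binding subunit of ISGF3, the complex that type I interferon receptors switch on, and IRF7 is the factor through which cells amplify interferon alpha and beta production once ISGF3 has raised it. IRF1 is a strong activator downstream of interferon gamma, and IRF2 binds the same elements and often opposes it. IRF5 acts below Toll-like receptors and MyD88 in inflammatory cytokine induction. IRF4 competes for MyD88 and, like IRF8, pairs with ETS factors such as PU.1 in dendritic cells, macrophages and B cells.

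The sequences at the gene starts are shown because factors switched on by interferons read short elements there. RefSeq windows (GRCm38.p6, mouse) of 250 bases before to 50 bases after an annotated start were held for 7 of 7 members, 10 windows in all, and 4 are printed from 5′ to 3′ on the strand of the gene. Capitals mark a match on either strand to the gamma-activated site (TTCNNNGAA), to the interferon-stimulated response element core (GAAA and GAAA on 1 strand, 2 bases apart) or to the ETS-IRF composite element (GGAA followed 2 bases later by GAAA). The windows are those of Irf1 on the plus strand (chr11:53769764-53770063), Irf2 on the plus strand (chr8:46739495-46739794), Irf8 on the plus strand (chr8:120736108-120736407) and Irf7 on the minus strand (chr7:141266375-141266674).
Irf1: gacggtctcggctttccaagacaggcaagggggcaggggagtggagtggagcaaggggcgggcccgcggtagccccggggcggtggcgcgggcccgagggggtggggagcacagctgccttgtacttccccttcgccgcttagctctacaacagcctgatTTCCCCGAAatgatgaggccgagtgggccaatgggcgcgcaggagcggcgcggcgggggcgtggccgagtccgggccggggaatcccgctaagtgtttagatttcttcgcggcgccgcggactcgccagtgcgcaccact
Irf2: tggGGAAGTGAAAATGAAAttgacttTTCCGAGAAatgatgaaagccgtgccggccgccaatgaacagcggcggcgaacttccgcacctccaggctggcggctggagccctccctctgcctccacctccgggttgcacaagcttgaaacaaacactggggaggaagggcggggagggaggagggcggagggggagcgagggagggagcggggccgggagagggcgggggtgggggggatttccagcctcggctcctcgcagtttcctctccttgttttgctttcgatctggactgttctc
Irf8: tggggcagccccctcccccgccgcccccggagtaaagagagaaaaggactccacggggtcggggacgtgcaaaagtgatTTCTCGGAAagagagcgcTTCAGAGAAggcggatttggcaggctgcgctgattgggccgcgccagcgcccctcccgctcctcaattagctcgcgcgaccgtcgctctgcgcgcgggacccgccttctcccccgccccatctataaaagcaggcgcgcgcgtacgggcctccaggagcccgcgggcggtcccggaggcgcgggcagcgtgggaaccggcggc
Irf7: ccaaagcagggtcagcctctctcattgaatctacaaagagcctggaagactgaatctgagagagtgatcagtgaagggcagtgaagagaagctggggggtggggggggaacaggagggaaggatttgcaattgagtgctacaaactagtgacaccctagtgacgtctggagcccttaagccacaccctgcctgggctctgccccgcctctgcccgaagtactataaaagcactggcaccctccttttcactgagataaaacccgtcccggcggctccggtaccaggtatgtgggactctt
Irf1 held 1 gamma-activated site starting 90 bases before the start, TTCCCCGAA. Irf8 held 2, TTCTCGGAA at 171 bases and TTCAGAGAA at 153 bases before the start. Irf2 held 1 gamma-activated site at 224 bases and a response element core, GAAAATGAAA, at 241 bases before the start, where it overlapped a composite element, GGAAGTGAAA, at 247 bases. The windows of Irf4, Irf5, Irf7 and Irf9, and the second windows of Irf1 and Irf8, held none of these elements, which says nothing about binding elsewhere. Over the 32851 windows of the RefSeq table, 8.30% held a gamma-activated site, 3.44% the response element core and 2.72% the composite element. An NF-kB motif, left in lower case, was matched in Irf1, Irf2, Irf4, Irf5 and Irf8 and in 26.8% of all windows. The matches describe letters and were set against no binding data.

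The deposited values correspond to 12725316 to 19660511 reads per library, and are given here as CPM, counts scaled to a common library size with the authors' factors. Irf4 rested on 31 to 244 reads per library and each of the other members on at least 748. Some libraries stood apart. Summed skeletal muscle markers reached 364 CPM in BO-112 tumour 1, 582 and 348 CPM in DMXAA tumours 1 and 3 and 98.4 CPM in vehicle tumour 2, against at most 11.1 CPM elsewhere. DMXAA tumour 2 had the highest summed macrophage (5607 CPM) and type 1 dendritic cell (163 CPM) markers. Of 5 epithelial carcinoma markers 3 were measured: Cdh1 averaged 8.39 CPM in BO-112, 20.4 CPM in DMXAA, 18.4 CPM in BO-112+DMXAA and 45.2 CPM in vehicle tumours, while Epcam averaged at most 1.91 CPM and Krt19 at most 1.18 CPM in any group. Vehicle tumour 3 stood apart here: the 3 markers summed to 85.3 CPM in it and to 27.5 and 28.7 CPM in vehicle tumours 1 and 2. Every value comes from bulk tumour RNA, in which fewer cells of a type and less RNA per cell cannot be told apart.

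BO-112 raised 4 of the 7 factors over vehicle 24 h after injection, Irf7, Irf9, Irf5 and Irf2, and DMXAA raised Irf7 alone among them. With both agents Irf7 and Irf9 were higher than with vehicle, and no factor differed past the threshold from BO-112 alone. Calls were made with limma on log2 CPM across all 15 libraries, at a Benjamini-Hochberg adjusted p below 0.05 over all 17712 genes. In BO-112 against vehicle 11.9% of all genes were called (7.64% higher), in DMXAA against vehicle 1.25% (1.08% higher) and in BO-112+DMXAA against vehicle 2.67% (2.49% higher). No member was called lower against vehicle.

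**Figure D1:**
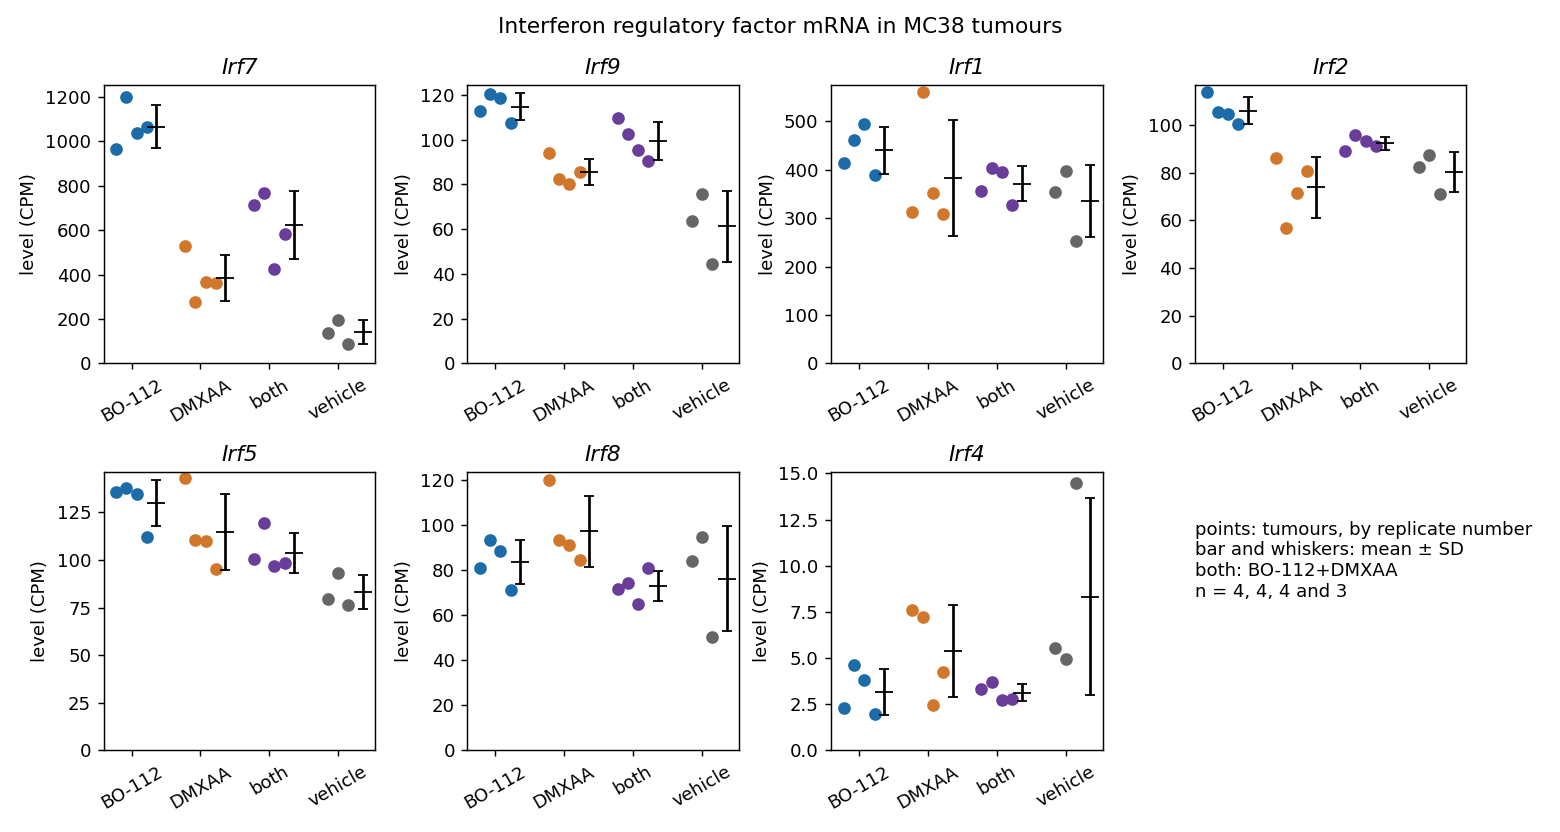
Level of each factor in CPM (linear axes from 0) in every tumour of the BO-112, DMXAA, BO-112+DMXAA and vehicle groups, with points as tumours and the bar and whiskers as mean and SD (n = 4, 4, 4 and 3). The 4 BO-112 tumours lie highest for Irf7, from 965 to 1198 CPM, and the 3 vehicle tumours lowest, from 89.0 to 197 CPM. For Irf1 all groups overlap, and for Irf8 each treated group overlaps the vehicle group. In Irf8 the BO-112+DMXAA tumours lie below all DMXAA tumours, as do 3.43% of all genes.

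Irf7, the interferon amplifier, moved most. Its level was 965, 1198, 1038 and 1063 CPM in BO-112 tumours, 530, 278, 366 and 363 CPM in DMXAA tumours, 713, 767, 424 and 585 CPM in BO-112+DMXAA tumours and 136, 197 and 89.0 CPM in vehicle tumours. Every treated tumour lay above every vehicle tumour, as did 18.1% of all genes with BO-112, 6.52% with DMXAA and 9.92% with both. Every BO-112 tumour lay above every tumour of the other groups, as did 12.1% of all genes between BO-112 and DMXAA. The log2 fold change over vehicle was 2.99 ± 0.26 (SE) with BO-112 (7.95-fold, adjusted p = 3.64e-06 by limma), 1.48 ± 0.26 with DMXAA (adjusted p = 0.0136) and 2.18 ± 0.26 with both (adjusted p = 0.000256). BO-112 exceeded DMXAA by 1.51 ± 0.24 (adjusted p = 0.000971), in a comparison where 21.4% of all genes were called (11.2% higher). The DMXAA call was lost at log2 fold changes of 1.497 without vehicle tumour 1 (adjusted p = 0.0694), 1.19 without vehicle tumour 3 (adjusted p = 0.0879), 1.53 without the 4 muscle-high libraries (adjusted p = 0.0942) and 1.48 in a fit of the 2 groups alone (adjusted p = 0.209).

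Irf9, the DNA-binding subunit of ISGF3, moved in the same directions over a smaller range. It stood at 113, 120, 119 and 107 CPM in BO-112 tumours, at 93.8, 82.3, 80.3 and 85.5 CPM in DMXAA tumours, at 110, 102, 95.3 and 90.4 CPM in BO-112+DMXAA tumours and at 63.7, 75.7 and 44.4 CPM in vehicle tumours. Each treated group lay wholly above the vehicle group, as did 18.1% of all genes with BO-112, 6.52% with DMXAA and 9.92% with both. The log2 fold change was 0.94 ± 0.14 with BO-112 (adjusted p = 0.000531), 0.73 ± 0.14 with both (adjusted p = 0.0103) and 0.51 ± 0.14 with DMXAA, which missed the threshold (adjusted p = 0.106). BO-112 was 0.43 ± 0.13 above DMXAA (adjusted p = 0.0361), a call held in 15 of 25 alternative settings.

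The ratio of Irf7 to Irf9 CPM, taken within each tumour, was 8.57, 9.97, 8.75 and 9.90 in BO-112 tumours, 5.64, 3.38, 4.55 and 4.25 in DMXAA tumours, 6.49, 7.49, 4.45 and 6.47 in BO-112+DMXAA tumours and 2.14, 2.60 and 2.00 in vehicle tumours. No treated tumour overlapped a vehicle tumour. The log2 differences from vehicle of 2.05, 0.97 and 1.45 for BO-112, DMXAA and both each had an exact two-sided permutation p = 0.0571, the smallest that 4 against 3 tumours allow, and 0.098 after adjustment over 12 ratio tests.

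Irf1 and Irf2 are the activator and its frequent opponent. Irf1 stood at 415, 462, 495 and 388 CPM in BO-112 tumours, 313, 560, 352 and 308 CPM in DMXAA tumours, 356, 405, 396 and 327 CPM in BO-112+DMXAA tumours and 355, 398 and 253 CPM in vehicle tumours. The groups overlapped, and the 95% interval of its log2 fold change over vehicle ran from -0.01 to 0.84 with BO-112 (adjusted p = 0.205), from -0.25 to 0.60 with DMXAA (adjusted p = 0.622) and from -0.26 to 0.59 with both (adjusted p = 0.915). Its estimate with BO-112, 0.41 ± 0.20, was called in 3 of 25 alternative settings. DMXAA tumour 2 held the highest Irf1 of all 15 and the lowest Irf2.

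Irf2 was called higher with BO-112 by a narrow margin. Its level was 114, 105, 105 and 100 CPM in BO-112 tumours, 86.3, 56.9, 71.4 and 80.7 CPM in DMXAA tumours, 89.1, 95.7, 93.3 and 91.1 CPM in BO-112+DMXAA tumours and 82.3, 87.5 and 71.0 CPM in vehicle tumours. The BO-112 tumours lay above all others. Of all genes 18.1% lay wholly higher with BO-112 than with vehicle, 12.1% than with DMXAA, and 6.11% than with both. BO-112+DMXAA tumours lay above all vehicle tumours, as did 9.92% of all genes, and this was not called. Over DMXAA tumours their log2 difference was 0.34 ± 0.12, without a call (adjusted p = 0.135 by limma). DMXAA and vehicle tumours overlapped. The log2 fold change with BO-112 was 0.41 ± 0.13 over vehicle (adjusted p = 0.0493) and 0.54 ± 0.12 over DMXAA (adjusted p = 0.00678). The first call held in 10 of 25 alternative settings, and scaling by total reads gave 0.25 (adjusted p = 0.335). The call was also lost on leaving out any 1 library other than DMXAA tumour 1, 2 or 4, with log2 fold changes from 0.32 to 0.47. The Irf1 to Irf2 ratio averaged 2.05 ± 0.17 on the log2 scale in BO-112 tumours, 2.35 ± 0.66 in DMXAA tumours, 2.00 ± 0.11 in BO-112+DMXAA tumours and 2.04 ± 0.18 in vehicle tumours (SD), and exact permutation gave p = 0.914, 0.629 and 0.686 for the 3 treatments in that order.

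Irf5, which drives inflammatory cytokines below MyD88, rose with BO-112. Its level was 136, 138, 135 and 112 CPM in BO-112 tumours, 143, 111, 110 and 95.5 CPM in DMXAA tumours, 101, 119, 97.1 and 98.2 CPM in BO-112+DMXAA tumours and 79.6, 93.0 and 76.1 CPM in vehicle tumours. All 12 treated tumours lay above all 3 vehicle tumours, where 18.1%, 6.52% and 9.92% of all genes lay wholly higher with BO-112, DMXAA and both, and the treated groups overlapped. The log2 fold change over vehicle passed the threshold with BO-112, at 0.65 ± 0.14 (adjusted p = 0.00515), and missed it with DMXAA, at 0.46 ± 0.14 (adjusted p = 0.124), and with both, at 0.32 ± 0.14 (adjusted p = 0.344). BO-112 and DMXAA differed by 0.19, with a 95% interval from -0.08 to 0.46.

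**Figure D2:**
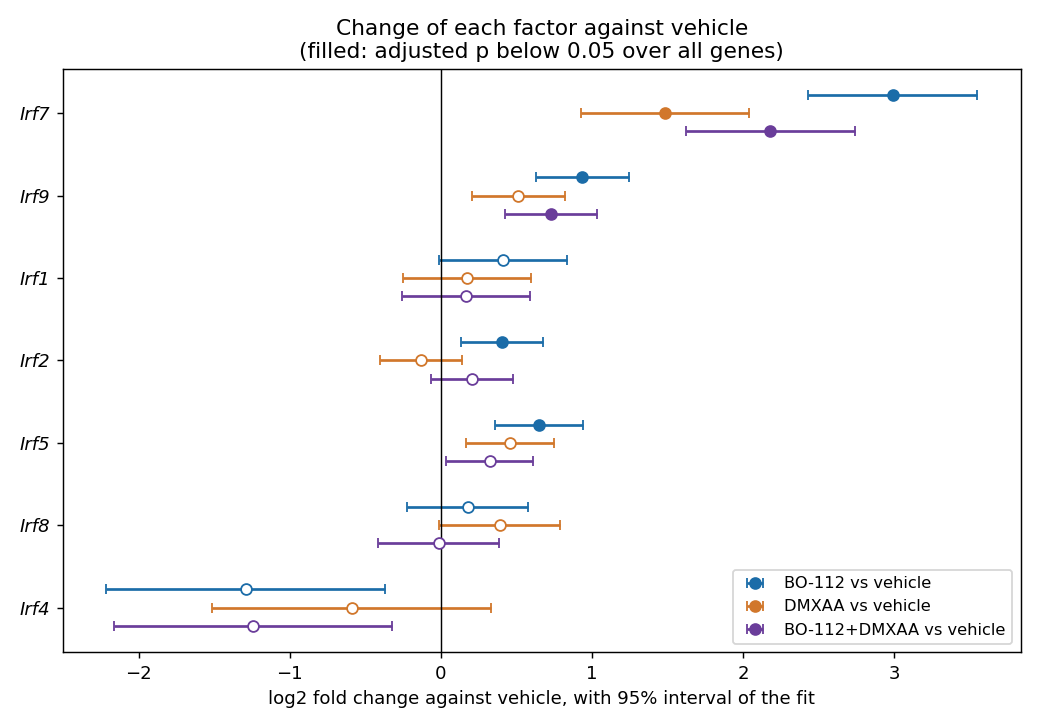
Log2 fold change of each factor against vehicle, with the 95% interval of the limma fit, for BO-112, DMXAA and BO-112+DMXAA (filled points have an adjusted p below 0.05 over all genes). Irf7 reaches 2.99 with BO-112, 1.48 with DMXAA and 2.18 with both, and Irf4 is the member with negative estimates under all 3, none of them called.

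Irf4 and Irf8 are lineage factors, and neither passed the threshold over all 15 libraries in any comparison. Irf4 was the scarcest member, at 2.30, 4.63, 3.79 and 1.98 CPM in BO-112 tumours, 7.62, 7.24, 2.42 and 4.24 CPM in DMXAA tumours, 3.32, 3.68, 2.70 and 2.76 CPM in BO-112+DMXAA tumours and 5.55, 4.96 and 14.5 CPM in vehicle tumours. The BO-112 and BO-112+DMXAA tumours lay below all vehicle tumours, as did 16.8% and 6.58% of all genes. The log2 fold change was -1.29 ± 0.43 with BO-112 (adjusted p = 0.0663), -1.24 ± 0.43 with both (adjusted p = 0.196) and -0.59 ± 0.43 with DMXAA (adjusted p = 0.435). With BO-112 it was called lower in 5 of 25 alternative settings, where the adjusted p ranged from 0.0153 to 0.313, among them those without DMXAA tumour 2 or without DMXAA tumour 3. Vehicle tumour 3 weighed on these values: without it they were -0.81 with BO-112, -0.76 with both and -0.10 with DMXAA.

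Irf8 stood at 81.2, 93.6, 88.6 and 71.4 CPM in BO-112 tumours, 120, 93.4, 91.3 and 84.4 CPM in DMXAA tumours, 71.8, 74.3, 65.2 and 81.1 CPM in BO-112+DMXAA tumours and 84.1, 94.6 and 50.2 CPM in vehicle tumours. Each treated group overlapped the vehicle group, whose lowest tumour was tumour 3. The log2 fold change over vehicle was 0.18 with BO-112 (95% interval -0.22 to 0.57), 0.39 with DMXAA (-0.01 to 0.79) and -0.01 with both (-0.41 to 0.38). BO-112+DMXAA tumours lay below all DMXAA tumours as did 3.43% of all genes, by a log2 difference of -0.40 ± 0.17, short of the threshold (adjusted p = 0.182).

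Cell type markers were counted at the same threshold, where BO-112 against vehicle called 11.9% of all genes in either direction and 7.64% higher. Irf8 is required for type 1 conventional dendritic cells, and 3 of 6 markers of that type fell with BO-112 against vehicle, Naaa, Itgae and Tlr11. Naaa averaged 38.8 CPM in BO-112 tumours and 92.9 CPM in vehicle tumours, with a log2 fold change of -1.26 ± 0.31 (adjusted p = 0.0152), and Cadm1, the next most abundant marker, averaged 4.00 and 9.02 CPM in those groups and was not called. Of 2 scarce defining markers of the type, neither was called. Clec9a averaged 2.15 CPM in BO-112 tumours and 4.69 CPM in vehicle tumours, without overlap, as 16.8% of all genes lay wholly lower. Xcr1 averaged 2.94 CPM in BO-112 tumours and 2.60 CPM in vehicle tumours. Summed over the list, in which Naaa is the largest part, the markers ran from 39.2 to 59.1 CPM in BO-112 tumours, 68.3 to 163 CPM in DMXAA tumours, 38.4 to 73.7 CPM in BO-112+DMXAA tumours and 97.9 to 144 CPM in vehicle tumours. Of 6 markers of type 2 dendritic cells, which depend on Irf4, 2 fell with BO-112, Mgl2 and Clec10a. The abundant ones, Sirpa (272 CPM with BO-112, 275 CPM with vehicle) and Itgax (110 and 116 CPM), were not called, and the list summed to between 353 and 429 CPM in BO-112 tumours and between 402 and 557 CPM in vehicle tumours. Of 5 measured B cell markers 1 rose with BO-112, Pax5, which averaged 3.99 CPM in BO-112 tumours and 0.268 CPM in vehicle tumours, and the list summed to between 2.28 and 8.05 CPM in any tumour. Other lists lay higher with BO-112. Of 4 migratory dendritic cell markers 2 rose, and the list summed to 519 to 654 CPM with BO-112 and 425 to 510 CPM with vehicle. Of 3 measured plasma cell markers 1 rose, and their sums were 132 to 163 CPM and 77.7 to 84.1 CPM. Macrophages also express Irf5 and Irf8. Of 9 macrophage markers 3 fell with BO-112 over vehicle, Cd163, Mrc1 (34.5 CPM with BO-112, 253 CPM with vehicle) and Csf1r (303 and 441 CPM). The most abundant, C1qa and C1qb, averaged 755 and 615 CPM in BO-112 tumours and 702 and 632 CPM in vehicle tumours, and Cd68 averaged 245 CPM in BO-112 tumours and 158 CPM in vehicle tumours without overlap and without a call. Of 5 monocyte markers 3 rose with BO-112, among them Ly6c2 (190 CPM with BO-112, 16.03 CPM with vehicle) and Plac8 (156 and 18.4 CPM), and 1 fell, Ccr2 (58.1 and 166 CPM). The monocyte list summed to between 480 and 643 CPM in BO-112 tumours, 377 and 896 CPM in DMXAA tumours, 360 and 482 CPM in BO-112+DMXAA tumours and 247 and 460 CPM in vehicle tumours. Of 5 endothelial markers 1 rose with BO-112, Kdr, and the list summed to between 203 and 242 CPM in BO-112 tumours and between 129 and 156 CPM in vehicle tumours. The part of cell numbers in the factors' levels was not tested.

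Irf8 and Irf5 were also set against Irf4 within each tumour. The log2 ratio of Irf8 to Irf4 averaged 4.78 ± 0.42 in BO-112 tumours, 4.29 ± 0.66 in DMXAA tumours, 4.54 ± 0.24 in BO-112+DMXAA tumours and 3.32 ± 1.33 in vehicle tumours (SD). That of Irf5 to Irf4 averaged 5.42 ± 0.49, 4.53 ± 0.67, 5.05 ± 0.12 and 3.48 ± 0.96 in the same groups. BO-112 and BO-112+DMXAA tumours did not overlap vehicle tumours in either ratio (exact two-sided permutation p = 0.0571, adjusted 0.098), and DMXAA tumours did (p = 0.343 and 0.114). Vehicle tumour 3 gave the lowest value of each ratio, and without it the Irf8 to Irf4 difference from vehicle was 0.71 with BO-112 and 0.47 with both.

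**Figure D3:**
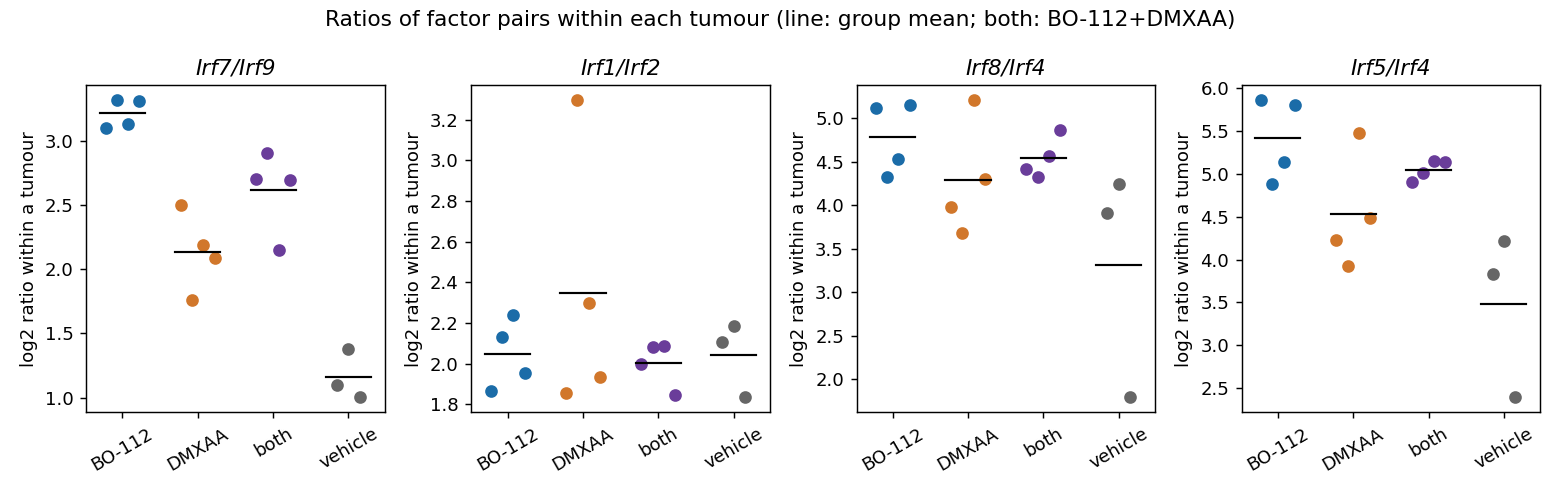
Log2 ratio of the CPM of 2 factors within each tumour, for Irf7/Irf9, Irf1/Irf2, Irf8/Irf4 and Irf5/Irf4, in the BO-112, DMXAA, BO-112+DMXAA and vehicle groups (points, tumours; line, group mean; axes do not start at 0). Irf7/Irf9 separates every treated tumour from the 3 vehicle tumours, and Irf1/Irf2 has 1 high point, DMXAA tumour 2, among overlapping groups.

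Levels per kilobase used the length of all annotated exons of a gene together, and the order between genes depends on that length. By this measure Irf1 led in vehicle tumours and Irf7 in BO-112 and BO-112+DMXAA tumours. In BO-112 tumours Irf7 led at 282 CPM per kb, and no neighbours in the order Irf7, Irf1 (111), Irf5 (44.8), Irf9 (21.3), Irf2 (14.3), Irf8 (11.9) and Irf4 (0.648) overlapped. In DMXAA tumours the ranges of Irf7 at 102 and Irf1 at 96.4 CPM per kb overlapped, as did those of Irf9 at 15.9 and Irf8 at 13.8, which stood under Irf5 at 39.5 and over Irf2 at 9.98 and Irf4 at 1.10. BO-112+DMXAA tumours had the same order as BO-112 tumours, with Irf7 at 165, Irf1 at 93.3 and Irf5 at 35.7 CPM per kb. In vehicle tumours Irf1 led at 84.3 CPM per kb, followed by Irf7 at 37.3 and Irf5 at 28.5, whose ranges overlapped, then by Irf9 at 11.4, Irf2 at 10.9 and Irf8 at 10.8, which also overlapped, and Irf4 at 1.70.

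The 2 agents together gave less Irf7 than their separate log2 changes added up to. On the log2 scale the BO-112 and DMXAA changes against vehicle summed to 4.47, and the change with both was 2.18, an interaction of -2.29 ± 0.36 (adjusted p = 0.00935 by limma), in a test where 1.35% of all genes were called, 1.15% in that direction. All 3 changes share the vehicle tumours. The interaction was -0.78 ± 0.18 for Irf5 (adjusted p = 0.0512), -0.72 ± 0.20 for Irf9 (adjusted p = 0.0873), -0.58 for Irf8 (adjusted p = 0.311), -0.42 for Irf1 (adjusted p = 0.487), -0.07 for Irf2 (adjusted p = 0.861) and 0.64 for Irf4 (adjusted p = 0.619). Irf7 alone passed the threshold, and 1 to 3 members passed it when single libraries were left out, 3 without vehicle tumour 2.

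**Figure D4:**
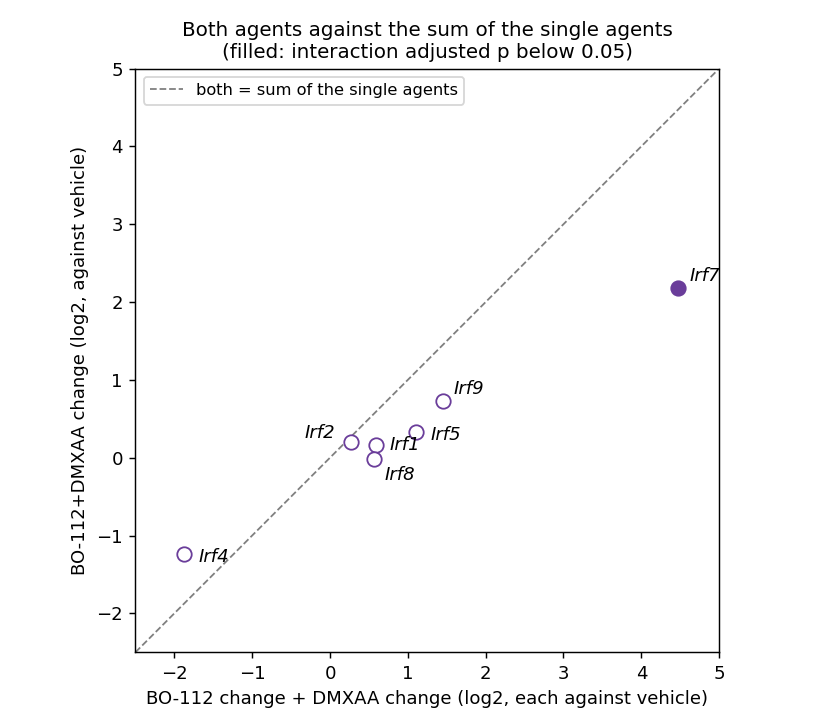
Log2 change with both agents against vehicle (y axis) plotted against the sum of the separate BO-112 and DMXAA log2 changes (x axis) for the 7 factors, where the dashed line marks equal values and the filled point an interaction with an adjusted p below 0.05. Irf7 lies farthest under the line, at 4.47 and 2.18.

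Adding DMXAA to BO-112 left Irf7 lower in all 4 BO-112+DMXAA tumours than in any BO-112 tumour, with a log2 difference of -0.81 ± 0.24 (adjusted p = 0.274); 6.11% of all genes lay wholly lower in this way. That comparison called 0% of all genes by limma, and 2 members, Irf7 and Irf5, had an unadjusted p below 0.05 (limma with voom weights also called 0 genes). The unadjusted limma p of Irf5, 0.0204, ranked 853 among all 17712 genes. A fit on those 2 groups alone called Irf7, 1 of 362 genes it called among all 17712, and array weights called 313 genes. The 95% interval of the difference was -1.33 to -0.29 for Irf7, -0.59 to -0.06 for Irf5, -0.49 to 0.08 for Irf9, -0.64 to 0.15 for Irf1 and -0.45 to 0.05 for Irf2. Adding BO-112 to DMXAA called 0.886% of all genes and 0 members, with 3 members, Irf2, Irf7 and Irf8, at an unadjusted p below 0.05. The unadjusted limma p of Irf8 there, 0.0337, ranked 3270 among all 17712 genes. Irf7 was 0.70 ± 0.24 higher (adjusted p = 0.136) and Irf2 0.34 ± 0.12 higher (adjusted p = 0.135) with both agents than with DMXAA, and both were called once DMXAA tumour 1 was left out, a fit that called 1765 of all genes where 157 were called with it.

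The genes around the factors were counted in 9 lists of pathway genes, with 100 of 110 listed symbols measured and the same limma threshold. Upstream, 7 of 13 sensors and adaptors and 9 of 13 kinases and scaffolds rose with BO-112 against vehicle, and 6 and 5 with both (2 kinases and scaffolds without vehicle tumour 3). With DMXAA 0 of either list passed by limma. At an unadjusted p below 0.05, 4 and 2 were higher, and 0 and 1 lower. Many genes reach this cut: Irf8, at an unadjusted limma p of 0.0545 with DMXAA over vehicle, ranked 3418 among all 17712 genes. Counts at this cut, here and for the lists below, were not tested against that background. Dhx58, an RNA helicase of the RIG-I family, averaged 164 ± 10.2 CPM in BO-112 tumours, 72.7 ± 8.75 CPM in DMXAA tumours, 116 ± 14.02 CPM in BO-112+DMXAA tumours and 44.5 ± 13.8 CPM in vehicle tumours. Ifih1, the sensor MDA5 of long double-stranded RNA, averaged 257 ± 18.5, 91.4 ± 17.9, 169 ± 20.8 and 74.8 ± 16.7 CPM in the same groups. Tank, a scaffold of the TBK1 kinase that activates IRF7, rose by a log2 fold change of 1.17 ± 0.10 with BO-112 over vehicle, and Peli1, a ubiquitin ligase of Toll-like receptor signalling, by 1.29 ± 0.14.

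Of the interferon genes listed 2 of 11 were measured. Ifnb1, interferon beta, averaged 7.20 ± 2.58 CPM in BO-112 tumours, 0.330 ± 0.192 CPM in DMXAA tumours, 1.68 ± 0.453 CPM in BO-112+DMXAA tumours and 0.107 ± 0.0421 CPM in vehicle tumours. It was called with BO-112 and with both over vehicle, and its interaction of -3.33 ± 0.57 was called as that of Irf7 was (adjusted p = 0.0135). The vehicle and DMXAA means of Ifnb1 were below 1 CPM, so these log2 values rest on few reads. Ifng, interferon gamma, averaged 0.807 ± 0.437, 3.08 ± 2.32, 0.822 ± 0.367 and 1.29 ± 1.24 CPM in BO-112, DMXAA, BO-112+DMXAA and vehicle tumours and was not called. With DMXAA over vehicle 0 of the 2 passed by limma, and 2 were higher at an unadjusted p below 0.05.

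Of 9 DNA-binding partners 4 rose with BO-112 over vehicle, among them Spi1, which encodes PU.1, by 0.54 ± 0.14 and Id2, an inhibitor of E proteins, by 1.15 ± 0.20. The count of 4 was 1 to 5 when single libraries were left out, 1 without vehicle tumour 1 or BO-112 tumour 2 and 2 without vehicle tumour 3 or any other BO-112 tumour. With DMXAA and with both 0 partners passed by limma. At an unadjusted p below 0.05, 3 and 3 were higher, and 1 and 0 lower. Of 11 corepressors and brakes 6 rose with BO-112, 1 with DMXAA (0 without vehicle tumour 1) and 4 with both. Usp18, which removes ISG15 and restrains the interferon receptor, averaged 241 ± 37.2 CPM in BO-112 tumours, 69.6 ± 3.48 CPM in DMXAA tumours, 132 ± 32.7 CPM in BO-112+DMXAA tumours and 30.8 ± 6.48 CPM in vehicle tumours, and Trim30a rose by 2.22 ± 0.18 with BO-112.

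Downstream, all 20 listed ISGF3 targets rose with BO-112 over vehicle, 7 rose with DMXAA and 18 with both, with median log2 fold changes of 2.89, 0.96 and 1.95 where the medians of all genes were -0.04, 0.01 and -0.01. The DMXAA count was 2 to 10 when single libraries were left out, lowest without vehicle tumour 1 (2) and vehicle tumour 3 (3). In the interaction 14 of these 20 were called lower, and 9 to 18 when single libraries were left out. Isg15, a ubiquitin-like modifier, averaged 563 ± 65.1 CPM in BO-112 tumours, 194 ± 46.5 CPM in DMXAA tumours, 305 ± 63.2 CPM in BO-112+DMXAA tumours and 76.8 ± 17.7 CPM in vehicle tumours. Ifit1, which binds foreign RNA ends, averaged 680 ± 77.2, 173 ± 31.7, 400 ± 82.6 and 108 ± 23.3 CPM in those groups.

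Of 18 targets linked to Irf1, itself not called, 12 rose and 1 fell with BO-112 over vehicle, 1 rose with DMXAA, and 7 rose and 1 fell with both. When single libraries were left out the calls with both, 8 in all, were 3 to 11, with 3 to 5 without vehicle tumour 1 or 3 or without BO-112+DMXAA tumour 1, 2 or 4. Those with DMXAA were 0 to 3, with 0 without vehicle tumour 1 or 3, BO-112 tumour 1 or 3 or DMXAA tumour 3 and 3 without vehicle tumour 2. Il15, the cytokine of NK cells, averaged 39.5 ± 7.16 CPM in BO-112 tumours, 13.1 ± 1.91 CPM in DMXAA tumours, 21.3 ± 3.50 CPM in BO-112+DMXAA tumours and 8.49 ± 2.70 CPM in vehicle tumours. Ciita, the activator of MHC class II genes, was the one that fell, averaging 4.31 ± 2.07, 20.02 ± 6.82, 11.5 ± 6.87 and 53.3 ± 4.42 CPM in those groups, with a log2 fold change of -3.72 ± 0.49 with BO-112. Of 5 measured cytokines linked to Irf5, 4 rose with BO-112 and 3 with both, and with DMXAA 0 passed by limma, with 3 higher at an unadjusted p below 0.05. Il12b averaged 40.1 ± 16.4 CPM in BO-112 tumours, 2.83 ± 1.05 CPM in DMXAA tumours, 15.9 ± 3.44 CPM in BO-112+DMXAA tumours and 3.43 ± 1.19 CPM in vehicle tumours, and Il6 averaged 5.65 ± 3.23, 1.79 ± 1.02, 3.32 ± 0.361 and 0.485 ± 0.116 CPM.

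The genes whose pattern over the 15 tumours was most like that of each called factor were searched among 13929 genes with a mean of at least 1 CPM, by the root mean square difference of centred log2 CPM. For Irf7, whose own spread was 1.09, they were Phf11b (0.105), Ms4a4c (0.194) and Isg20 (0.217). For Irf9 (own spread 0.368) they were Tap1 (0.129), Mlkl (0.137) and Pid1 (0.140). For Irf5 (own spread 0.271) they were Myd88 and Cnp (0.0954 each) and Lat2 (0.122). For Irf2 (own spread 0.250) they were Sdad1 (0.0567), Csnk1g1 (0.0745) and Slu7 (0.0862). These are descriptions over shared libraries, with no test.

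In the GENCODE M21 annotation, exons of Irf1, Irf5 and Irf7 overlap genes on the opposite strand, Gm17334 over 135 bases, Tnpo3 over 411 bases and Phrf1 over 45 bases, and exons of Irf9 overlap Rnf31 on the same strand over 123 bases. The library kit marks strand, but whether counting used it is not given in the sources used here, so reads in those stretches could have been counted for either gene.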

How the data were processed

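RNA of 15 tumours was sequenced from stranded mRNA libraries as paired reads of 150 bases, per the labels' protocols. The submitters' processing notes name STAR, edgeR, limma and the build mm39, without versions or roles. The deposited table holds log2 CPM made by the authors, and its values, undone with 0.5 reads added and the libraries' scaling factors (0.85 to 1.08), gave whole reads for 100% of values within 1e-06. Totals were 12725316 to 19660511 reads per library, and reads without molecular identifiers give a precision for counting error only. A second deposited table has 15 columns without sample names, which were not used. Gene symbols came from GENCODE M21 by identifier without version (17636 of 17712 genes), and exon lengths came from the same annotation.

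Groups were modelled with limma 3.58.1 in R 4.3.3 on the log2 CPM values as deposited, over the 15 libraries together, with group means, a trended and robust variance and Benjamini-Hochberg adjustment over all 17712 genes. The unit called for no count model. The fit was tested on simulated data. SE and 95% intervals are those of the fit. The 7 comparisons were each agent and both against vehicle, both against each agent, BO-112 against DMXAA, and the interaction (both minus BO-112, minus DMXAA plus vehicle). Ratios within tumours were compared by exact permutation. Genes were named by a rule: the 7 members, the 3 genes most like each called member, the 2 smallest p-values in BO-112 against vehicle of each pathway list with any call in the other direction, and the 2 most abundant markers of a cell type list set beside a member. Markers named outside it were chosen after their values were seen. The members and lists were chosen with earlier results of these data known. Alternatives covered scaling, a filter of 1 CPM in at least 4 libraries, 2 added reads, voom weights on the recovered reads, array weights, 2-group fits, the replicate block, each library left out and, added with results known, the 4 muscle-high libraries left out or DMXAA tumours 2 and 3 left out. A check of replicate numbers gave no sign that they pair samples. No 2 libraries of a group agreed within sampling noise (chi-square per gene at least 10.2). DMXAA tumour 2 differed most, at 215 from each of DMXAA tumours 1 and 4. Pairs with DMXAA tumour 3 gave 55.9 to 73.7, and DMXAA tumours 1 and 4 gave 18.7. No pair within the other groups exceeded 22.9. The list of interferon receptors and their signalling genes is not reported here.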

Additional observations from a re-analysis of the deposited data

Results flagged for a closer look

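Irf5 in BO-112 tumour 4 lay apart from the other 3 BO-112 tumours. Its level was 112 CPM beside 135 to 138 CPM, and the gap to the nearest tumour took up 0.9 of the range of the group, above the critical value of Dixon's test for 4 samples at the 95% level. Each of 7 members was tested in 3 groups of 4, 21 groups in all, of which this was the 1 to pass, and chance passes about 1 in 20. Without that tumour Irf5 was still called higher with BO-112 than with vehicle.

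The effect of DMXAA on Irf7 differed between tumours with and without BO-112. Where BO-112 was given, DMXAA went with a log2 difference of -0.81, and where it was not, with one of 1.48, which makes the interaction -2.29 (adjusted p = 0.00935 by limma). The 4 BO-112+DMXAA tumours all lay below the 4 BO-112 tumours, as did 6.11% of all genes. The 4 DMXAA tumours all lay above the 3 vehicle tumours, as did 6.52% of all genes. By limma the first difference was not called (adjusted p = 0.274). The second was called (adjusted p = 0.0136), and held in 21 of 25 alternative settings. The interaction kept its sign and passed the threshold in 24 of 24 alternative settings.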

How the results depend on the processing

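Irf7, Irf9 and Irf5 were called higher with BO-112 than with vehicle in 25 of 25 alternative settings, as were Irf7 and Irf9 with both agents over vehicle. The DMXAA call of Irf7 held in 21 of 25 and the Irf2 call with BO-112 in 10 of 25. Against the 1 member called in DMXAA over vehicle, 0 were called in a fit of the 2 groups alone and 0 without the 4 muscle-high libraries, and 0 to 2 when single libraries were left out. Against the 1 called in the interaction, 2 were called with scaling by ratios to the geometric mean, 2 with the 1 CPM filter, 3 with array weights, 2 with the replicate block (Irf5 and Irf7), 3 without DMXAA tumours 2 and 3, and 1 to 3 when single libraries were left out. Against 0 for both agents over BO-112, 1 was called in the 2-group fit, and over DMXAA 0 to 2 were called without single libraries, 2 without DMXAA tumour 1. The cause was not tested in any of these. The block also took the Irf2 call with BO-112 to an adjusted p of 0.0863. Deviations of libraries with the same number correlated at 0.0152 on average over 21 pairs, and those with other numbers at -0.0051 over 63. Of 42 best matches 13 were with their own number. The check gave no sign that the numbers pair samples, and it cannot exclude pairing or a shared batch.

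Small log2 differences, none of them called, changed sign. Irf1 between both agents and DMXAA was 0.051 with total-read scaling, 0.20 with array weights, 0.25 without DMXAA tumours 2 and 3, and -0.095 to 0.19 without single libraries. Irf1 with DMXAA over vehicle was -0.10 with array weights, -0.085 without DMXAA tumours 2 and 3, and -0.025 to 0.31 without single libraries. Irf1 with both over vehicle ran from -0.022 to 0.30. The Irf2 interaction was 0.15 with total-read scaling, 0.0090 without the muscle-high libraries, and -0.19 to 0.018 without single libraries, and Irf2 with DMXAA over vehicle was 0.062 without DMXAA tumours 2 and 3. Irf8 with both over vehicle was 0.014 with the replicate block, 0.17 without the muscle-high libraries and -0.29 to 0.17 without single libraries, and Irf8 with BO-112 over vehicle ran from -0.10 to 0.36. Irf4 between both agents and BO-112 was -0.077 without the muscle-high libraries and -0.15 to 0.26 without single libraries, and Irf5 between both agents and DMXAA was 0.0093 without the muscle-high libraries. The log2 Irf1 to Irf2 ratio differed from vehicle, without single libraries, by -0.098 to 0.076 in BO-112 tumours, by -0.012 to 0.47 in DMXAA tumours and by -0.14 to 0.031 in BO-112+DMXAA tumours.

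Counts over all genes moved more: against 2116 for BO-112 over vehicle, array weights called 5006 and the 2-group fit 4320; against 221 for DMXAA over vehicle, 351, 4 and, with voom weights, 93; against 473 for both over vehicle, 1403 and 748 by the first pair of settings. For both over BO-112, where 0 were called, array weights called 313 and the 2-group fit 362. Without the muscle-high libraries DMXAA over vehicle called 24 and the interaction 36 against 239, and of the 14 interaction calls among ISGF3 targets 4 were made. Total-read scaling moved the median of all genes by -0.16 with BO-112, -0.13 with DMXAA and 0.21 in the interaction. Irf4, at 31 to 244 reads per library, is the member most limited by depth.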
